A study of Mus musculus with 17 samples.

Results

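The clustered replication histone genes are the protein-coding mouse genes whose symbols start with Hist1h, Hist2h, Hist3h or Hist4h. They were picked by symbol from the GENCODE M21 annotation of GRCm38 and matched by Ensembl ID to the deposited count files. The rule found 67 of the 54838 genes in the files, made up of 6 genes for the linker histone H1, 18 for H2A, 18 for H2B, 12 for H3 and 13 for H4. Another 3 genes of the same naming are pseudogenes in the annotation and were left out. The RNA came from bulk-sorted haematopoietic stem cells of C57BL/6 Jrj mice, taken from c-kit enriched marrow as CD150+ CD48- cells that carry Sca1 and c-Kit and lack lineage markers, and was made into Nextera XT libraries. The 17 libraries formed 4 groups. Old Mito-Q (n = 5) came from mice over 18 months old given 5 daily intraperitoneal injections of Mito-Q at 2 mg/kg, and old control (n = 3) from control mice of that age. Young CCCP (n = 5) came from mice of 8 to 12 weeks given 1 intraperitoneal injection of CCCP at 0.3 mg/kg, and young control (n = 4) from control mice of those ages. Mito-Q is a ubiquinone antioxidant that collects in mitochondria, and CCCP is a protonophore that uncouples them. The labels do not say whether controls received vehicle or whether each library came from its own mouse, so the p-values measure the spread between libraries, which may be technical.

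Replication histone genes supply the bulk of new histones when DNA is copied, and their transcripts rise in S phase and are destroyed when it ends. They have no introns as a rule, and their messages end in a short stem-loop, bound by SLBP, in place of a poly(A) tail. H2A, H2B, H3 and H4 form the nucleosome core, and H1 binds the linker DNA between nucleosomes and compacts chromatin. Most blood stem cells are out of cycle, and some of these genes also give polyadenylated transcripts in such cells.

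The stem-loops of 8 genes on which the results turn are given first, because this hairpin is what sets these messages apart from others. Each is read 5′ to 3′ from the annotated transcript, at GRCm38 coordinates, with the 16-base hairpin in capitals.
Hist1h1d, chr13:23555782-23555807, plus strand: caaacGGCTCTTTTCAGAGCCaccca
Hist1h1e, chr13:23621777-23621802, minus strand: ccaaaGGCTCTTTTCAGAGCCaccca
Hist1h1c, chr13:23739507-23739532, plus strand: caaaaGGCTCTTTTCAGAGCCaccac
Hist1h2bg, chr13:23571838-23571863, plus strand: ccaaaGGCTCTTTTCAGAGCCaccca
Hist1h2ae, chr13:23570663-23570688, minus strand: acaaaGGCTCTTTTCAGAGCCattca
Hist1h4d, chr13:23581945-23581970, plus strand: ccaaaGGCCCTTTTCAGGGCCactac
Hist1h4c, chr13:23698084-23698109, minus strand: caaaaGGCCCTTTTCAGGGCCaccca
Hist1h3e, chr13:23561898-23561923, minus strand: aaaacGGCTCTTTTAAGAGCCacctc
The H1, H2A and H2B hairpins above share 1 sequence and both H4 hairpins share another, while the loop of Hist1h3e departs from the core CTTTTCAG. Within 2 differences of the hairpin consensus, an annotated transcript of 46 of the 67 members (68.7%) held a stem-loop, against 2.25% of 21854 other protein-coding genes. Without any difference it was in 33 members and in 2 other genes. The 21 members without one include Hist1h2bc and Hist1h1b.

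The annotated transcripts also differ in how far they run past the hairpin, which for Hist1h1d is 4884 bases in a single exon of 7425 bases (chr13:23553262-23560686, plus strand). A stem-loop followed by at least 100 annotated bases was found in 23 members, and these carried 68.8% of the members' summed level, taking the mean over all libraries of CPM, the read count scaled to library size with TMM factors. Another 23 members with fewer than 100 bases after the loop carried 13.96%, and the 21 with no annotated loop carried 17.3%. Of the 12 members of highest mean level, 10 had the loop with at least 100 bases after it. These levels are not scaled by length, and a longer annotated end gives a longer exon to collect reads. Per kb of exon, 7 of the 12 highest members had it, and 4 had fewer than 100 bases. Medians were then 4.74 CPM per kb with at least 100 bases, 5.28 with fewer and 2.65 with no annotated loop. The counts are per gene and do not show on which side of the hairpin the reads lay.

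Copies of these genes resemble each other so closely that reads can be shared. In 34 of the 67 members at least 50% of the 50-base words of their exons also occurred in another gene, and in 8 members fewer than 10% did. Of the Hist2 cluster, Hist2h2aa1, Hist2h2aa2, Hist2h3c1, Hist2h3b and Hist2h2bb had 0 reads in every library, and these are the 5 members whose every word occurs elsewhere. Reads that align to more than 1 place, between 5.72% and 11.8% of each file's total, are listed apart from the genes, so a count of 0 here does not bear on expression. Hist1h1d shared 2.25% of its words with other genes, Hist1h1c 8.54%, Hist1h4d 10.2%, Hist1h2bc 30.6% and Hist1h2ao 93.5%, so values of the last of these are uncertain. The exons of Hist1h1e and Hist1h2be overlap on the same strand, and reads from the overlap cannot be told apart.

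**Figure D1:**
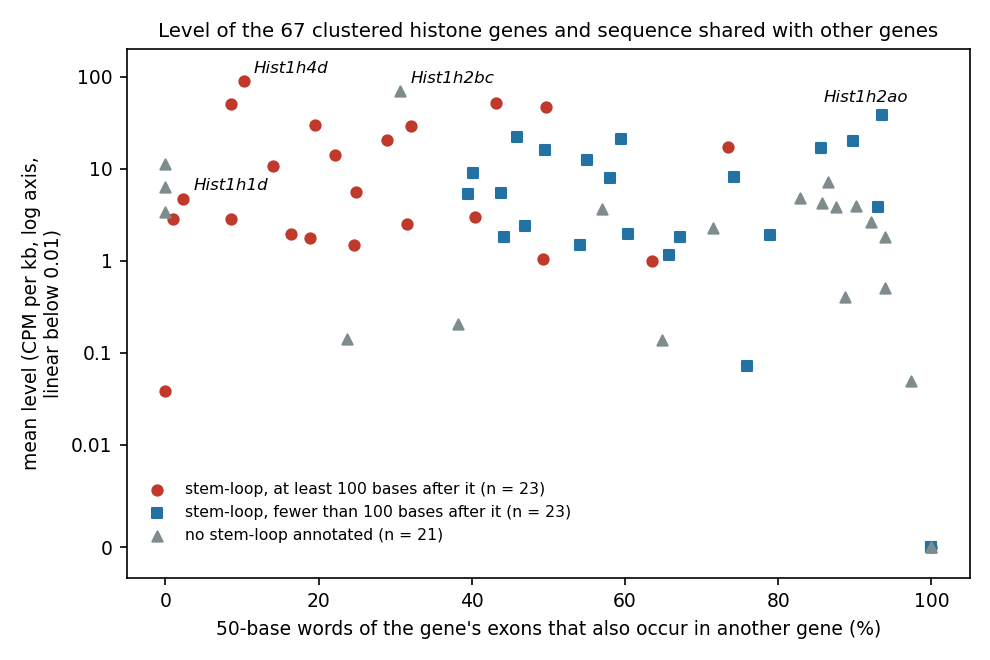
Mean level of each of the 67 members over 17 libraries, in CPM per kb of exon on a log axis that is linear below 0.01, against the share of its 50-base words that also occur in another gene. Colours and shapes give the annotated end of the transcript. Hist1h4d lies highest at 89.4 CPM per kb and 10.2% shared words, and the 5 members at 100% lie on top of each other at 0.

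Along the genome the members lie in 5 stretches. The larger part of the Hist1 cluster, chr13:23531050-23934851, holds 31 members and carried 80.0% of the summed level, and the other part, chr13:21715763-22043676, holds 23 members and carried 13.7%. The Hist2 cluster on chromosome 3 has 10 members with 3.09%, the 2 Hist3 genes on chromosome 11 had 2.07%, and Hist4h4 on chromosome 6 had 1.20%. By class, H4 carried 27.1% of the level, H1 26.97%, H2B 24.6%, H2A 15.7% and H3 5.599%. Reads that align to several places are not counted, so shares of stretches and classes rich in shared sequence may be understated. The level was concentrated in few genes, since the top 3 members held 38.3% of it and the top 12 held 75.9%.

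Scaled by exon length, Hist1h4d was the highest at 89.4 CPM per kb, followed by the H2B gene Hist1h2bc at 70.3, the H2A gene Hist1h2ae at 51.6, the linker histone gene Hist1h1c at 50.6 and the H2B gene Hist1h2bg at 47.4. The linker histone genes Hist1h1e and Hist1h1d reached 29.6 and 4.74 CPM per kb, the second over its long annotated exon. Of the other linker histone genes, Hist1h1b had 11.4 and Hist1h1a 6.30 CPM per kb. Hist1h1t, the testis linker histone gene, had 6 reads in all, and they came from 1 library. At least 3 reads in all 17 libraries were found for 21 members, and the low-count filter kept 51 members for testing and left out 16.

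The depth of the libraries ran between 5649611 and 8120443 reads assigned to genes, at which 3 reads correspond to between 0.369 and 0.531 CPM before TMM scaling. Intervals and floors of this kind cover counting error only. Of the gate's own markers, Kit was present in all libraries, with a mean over them of 975 CPM, while Cd48, which the gate selects against, had a mean of 4.56 CPM and no read in 7 libraries. Such means do not show differences between groups, which are given below. Summed over 11 marker genes listed for the gate, young CCCP 3 was lowest, at 1708 CPM, where the median of its group was 3335 CPM. Several libraries stood apart from the others. Young CCCP 3 had the lowest median Spearman correlation with the other libraries, 0.682, followed by old control 1 at 0.799 and young control 3 at 0.803. Reads listed under no feature were 58.4% of the total in old control 1, against 17.8% and 20.9% in old control 2 and 3. They were 60.2% in young CCCP 3, against 27.6% to 50.2% in the other CCCP libraries. Genes annotated as rRNA summed to 272477 CPM in young CCCP 3, against 14306 to 155740 CPM in its group's other libraries. In these bulk libraries, fewer cells of a type and less RNA per cell cannot be told apart.

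Summed over the members, the level was 380, 443, 703, 477 and 400.2 CPM in the 5 old Mito-Q libraries, against 400.4, 1137 and 1458 CPM in the 3 old control libraries. It was 446, 504, 1255, 609 and 458 CPM in the 5 young CCCP libraries, against 425, 644, 1330 and 558 CPM in the 4 young control libraries. Both pairs of groups overlap, the old pair because old control 1 lies as low as the Mito-Q libraries. Young CCCP 3 and young control 3 lie far above the others of their groups, and the young groups overlap with or without them. The means were 481 ± 130 CPM in old Mito-Q and 998 ± 542 CPM in old control, and 654 ± 342 CPM in young CCCP and 739 ± 404 CPM in young control (SD, n = 5, 3, 5 and 4 libraries). Without young CCCP 3 the mean of young CCCP was 504 CPM, and without young control 3 that of young control was 542 CPM. The old control mean was 768 CPM without old control 3. Of the 51 members tested, 19 had their highest level in young CCCP 3, 13 in old control 3 and 10 in young control 3.

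**Figure D2:**
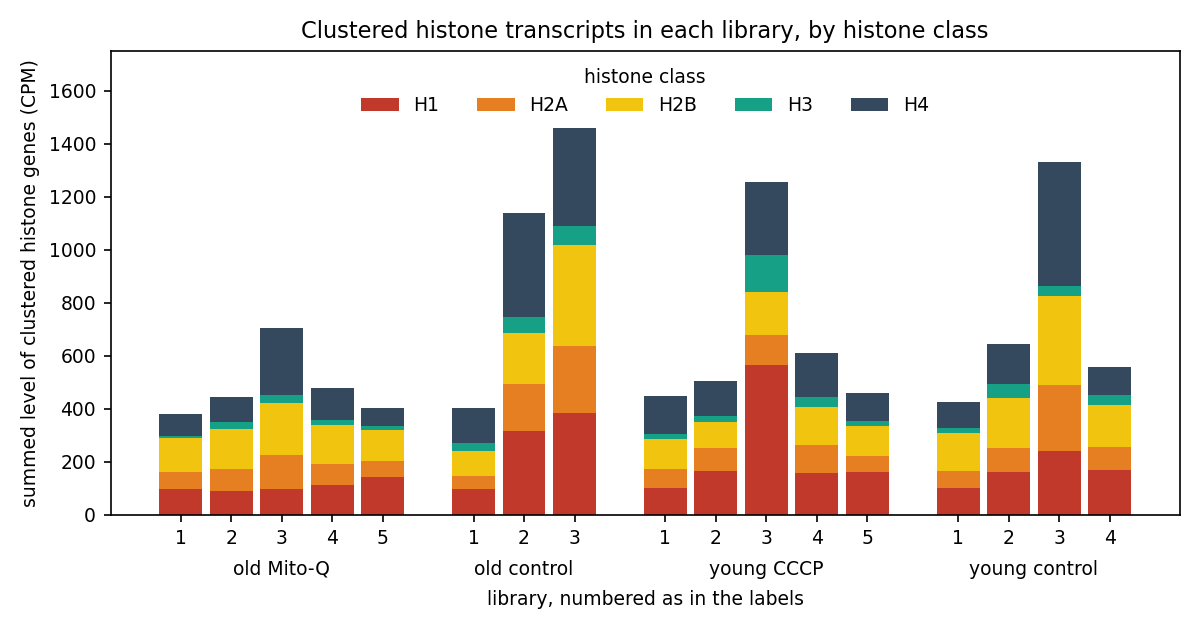
Summed level of the members in each of the 17 libraries, in CPM, stacked by histone class. Bars above 1000 CPM are old control 2 and 3, young CCCP 3 and young control 3, and H1 makes up 44.8% of the bar of young CCCP 3.

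The libraries high in these genes were also high in certain other RNAs, picked for this comparison after the values were seen. Rn7sk, a short nuclear RNA made by RNA polymerase III, was at 10.4, 15.03, 27.6, 9.60 and 8.603 CPM in old Mito-Q, against 11.2, 56.4 and 46.5 CPM in old control. In the young groups it was at 8.93, 7.17, 27.997, 13.6 and 6.72 CPM in CCCP, against 10.1, 9.96, 117 and 8.07 CPM in control. The 5 libraries highest in the members' sum were the 5 highest in Rn7sk, and also the 5 highest in mt-Rnr2, a mitochondrial ribosomal RNA. For 2 other RNAs looked at, Rny3 and Malat1, 4 of the 5 highest libraries were the same. Genes annotated as rRNA went both ways. Old control 3, highest in the members' sum, had their lowest summed level of all 17 libraries, 14148 CPM. Young CCCP 3 and young control 3 had the highest of their groups, at 272477 and 159149 CPM. Young control 3 was the highest of all in Rn7sk, and the groups of both treatment comparisons overlap in it. The part of what raised these RNAs in the histone levels was not tested.

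Old Mito-Q against old control asks how the antioxidant altered transcripts of old stem cells. Among the 51 members tested, 1 was called, the linker histone gene Hist1h1d, which fell. Hist1h1d had 4.49, 5.65, 7.35, 12.4 and 2.19 CPM in old Mito-Q, against 21.9, 63.4 and 100.1 CPM in old control. Every Mito-Q library lay below every old control library, and the lowest old control value came from old control 1, the library whose summed level was like that of the Mito-Q libraries. The log2 fold change was -3.27 ± 0.60 (SE), with an adjusted p of 0.00406 by edgeR's quasi-likelihood test with Benjamini-Hochberg adjustment over all 24523 genes tested. Of all genes, 0.542% were called in this comparison. The call was lost with limma-voom, at an adjusted p of 0.109, and without old control 3, at a log2 fold change of -2.73 and an adjusted p of 0.0539. DESeq2 called 3 members lower, Hist1h1d, Hist1h2an and Hist1h4n, beside 2.51% of all genes.

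The other members mostly lay on the same side without passing the test. At an unadjusted p below 0.05, 0 members were higher and 11 lower, or 21.6% of the 51, beside 5.12% of all genes higher and 4.93% lower. The median log2 fold change was -1.55 over the members and -0.12 over all genes tested, and 45 of the 51 members had a negative estimate, as did 54.9% of all genes. All Mito-Q libraries were below all old control libraries for 11 members, beside 2.20% of all genes, and above them for 0 members, beside 3.87% of all genes. Medians by class were -1.86 for 5 H1 genes, -1.83 for 12 H4 genes, -1.24 for 14 H2B genes, -1.05 for 13 H2A genes and -1.03 for 7 H3 genes. The members' median was -0.92 without old control 3, so it leaned on that library.

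Among the linker histone genes, Hist1h1e had 25.7, 20.2, 17.2, 32.4 and 31.0 CPM in old Mito-Q, against 26.6, 118 and 130 CPM in old control. The groups overlap through old control 1, and the log2 fold change of -1.86 ± 0.61 had an adjusted p of 0.272. Hist1h1c, another linker histone gene, had 58.3, 60.8, 62.4, 63.3 and 104 CPM in old Mito-Q, against 45.2, 123 and 141 CPM in old control, with a log2 fold change of -0.56 ± 0.38 and an adjusted p of 0.677. Of these 3 linker histone genes, Hist1h1d alone had groups that do not overlap.

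In the H4 class, Hist1h4c had 8.00, 6.68, 11.9, 12.9 and 1.41 CPM in old Mito-Q, against 20.8, 52.0 and 60.7 CPM in old control. These groups do not overlap, and the log2 fold change of -2.44 ± 0.74 had an adjusted p of 0.218. Hist1h4n, 85.6% of whose words occur in other genes, had 2.11, 1.16, 3.43, 2.28 and 1.56 CPM in old Mito-Q, against 8.80, 14.3 and 21.8 CPM in old control, again without overlap. Its log2 fold change was -2.82 ± 0.80 with an adjusted p of 0.169. Hist1h4d, the most abundant member, had 48.2, 52.3, 168, 76.0 and 42.1 CPM in old Mito-Q, against 49.4, 261 and 188 CPM in old control, and its groups overlap. The H2B gene Hist1h2bc showed little of this tendency, with 83.3, 106, 125, 89.2 and 81.0 CPM in old Mito-Q against 39.97, 92.0 and 183 CPM in old control and a log2 fold change of -0.11 ± 0.37. It was not alone, since Hist1h4i and Hist1h2ao, also among the 12 members of highest mean level, had 0.24 ± 0.69 and 0.07 ± 0.84.

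**Figure D3:**
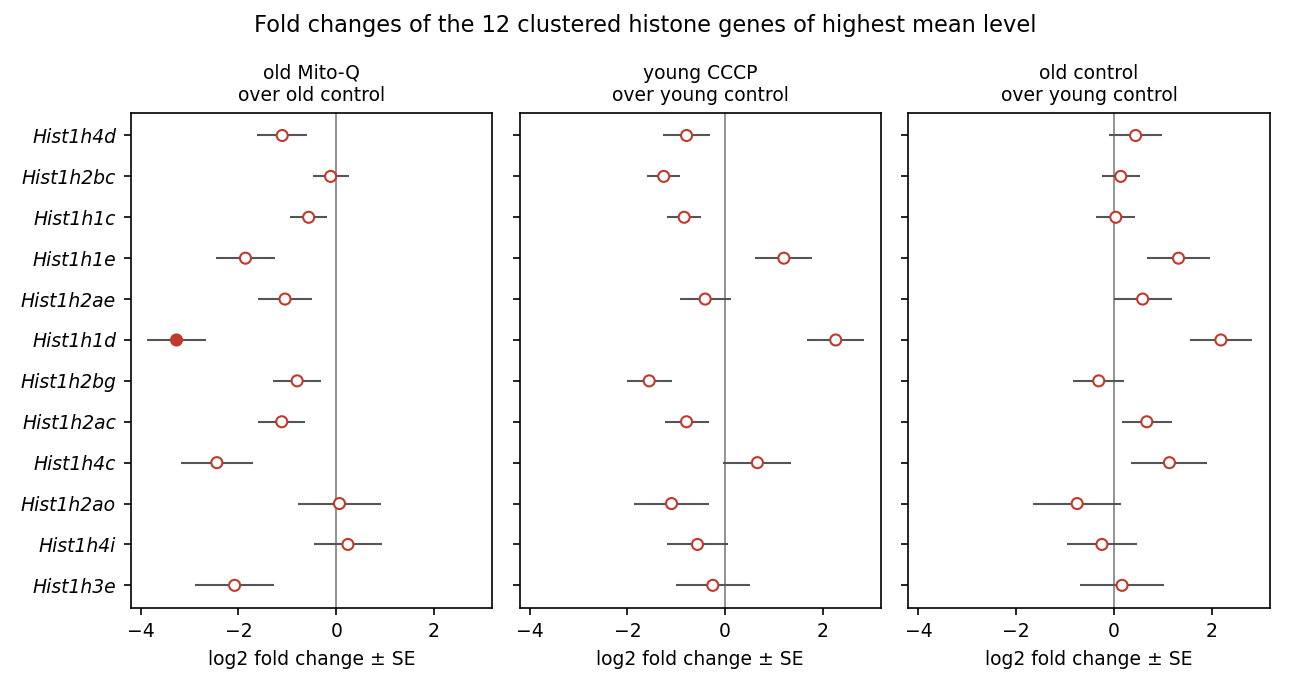
Log2 fold changes with their standard errors for the 12 members of highest mean level, from edgeR, in old Mito-Q over old control, young CCCP over young control and old control over young control. The filled point marks the 1 call, Hist1h1d at -3.27 with Mito-Q, and open points did not pass the test.

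Young CCCP against young control asks how the uncoupler altered transcripts of young stem cells. No member was called by edgeR, beside 0.718% of all genes, and none by limma-voom. At an unadjusted p below 0.05, 4 members were higher, beside 6.35% of all genes, and 3 were lower, beside 4.80%. DESeq2 called 4 members, with Hist1h1d and Hist1h2be higher and Hist1h2bc and Hist1h2bg lower, beside 3.34% of all genes. The median log2 fold change was 0.34 over the members and 0.21 over all genes, and it was -0.10 over the members without young CCCP 3.

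Hist1h1d had 19.6, 43.1, 161, 51.2 and 51.3 CPM in young CCCP, against 10.6, 8.32, 24.4 and 11.1 CPM in young control. All but 1 CCCP library lay above all young control libraries, the exception being CCCP 1, which lay below young control 3. The log2 fold change was 2.26 ± 0.59 with an adjusted p of 0.0834 by edgeR, and 2.40 with an adjusted p of 0.00595 by DESeq2. By edgeR it was 1.61 with an adjusted p of 0.239 without young CCCP 3, and 2.05 with an adjusted p of 0.109 without both young CCCP 3 and young control 3. Hist1h1e had 27.7, 49.2, 253, 44.5 and 48.3 CPM in young CCCP, against 26.8, 15.01, 82.9 and 22.5 CPM in young control, and its log2 fold change of 1.20 ± 0.58 had an adjusted p of 0.448. Hist1h1c had 35.7, 60.3, 92.9, 44.4 and 48.3 CPM in young CCCP, against 55.1, 121, 94.4 and 132 CPM in young control, and its estimate was negative, -0.84 ± 0.35, with an adjusted p of 0.385. The 3 abundant linker histone genes therefore had estimates of both signs, none past the edgeR threshold.

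The H2B genes Hist1h2bc and Hist1h2bg, both among the 12 members of highest mean level, had CCCP libraries that all lay below the young control libraries. Hist1h2bc had 42.9, 36.0, 37.5, 45.7 and 37.6 CPM in young CCCP, against 76.4, 84.0, 149 and 72.5 CPM in young control. Its CCCP values spread little, and its log2 fold change of -1.26 ± 0.34 had an adjusted p of 0.109 by edgeR and 0.0290 by DESeq2. Hist1h2bg had 16.7, 21.5, 6.42, 19.8 and 16.8 CPM in young CCCP, against 39.95, 49.1, 49.6 and 52.2 CPM in young control. Its log2 fold change of -1.55 ± 0.46 had an adjusted p of 0.187 by edgeR and 0.0216 by DESeq2. Without young CCCP 3 and young control 3 the edgeR estimates were -0.93 for Hist1h2bc and -1.32 for Hist1h2bg, with adjusted p of 0.504 and 0.403. They were the only 2 of the 51 members tested whose CCCP libraries all lay below, beside 2.89% of all genes, and 3 members (Hist1h2bb, Hist1h2be and Hist1h2bp) had all CCCP libraries above, beside 1.78%. Hist1h2be, an H2B gene, had 8.93, 9.60, 22.6, 12.9 and 13.6 CPM in young CCCP, against 3.81, 7.64, 3.05 and 5.03 CPM in young control. Ambiguous reads are listed apart from the genes, so reads of its overlap with Hist1h1e may be missing from its count.

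**Figure D4:**
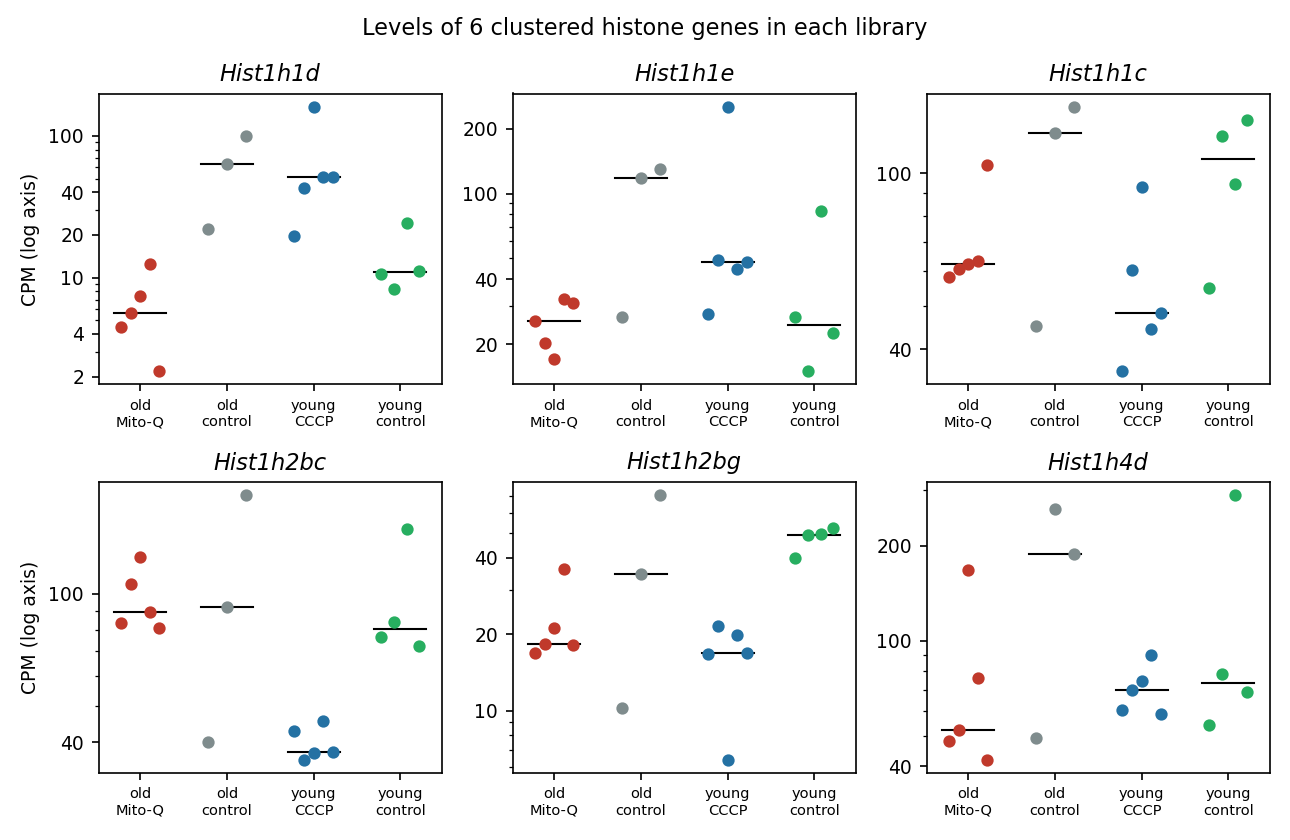
Levels of 6 members in each library, in CPM on log axes, with the median of each group as a line and 1 point per library. Hist1h1d reaches its lowest values in old Mito-Q, between 2.19 and 12.4 CPM, and Hist1h2bc lies between 36.0 and 45.7 CPM in young CCCP, below all young control libraries.

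Old control against young control asks how stem cells of old mice differ from those of young mice. No member was called by edgeR, beside 1.69% of all genes, and none by limma-voom, while DESeq2 called 1, Hist1h1d higher, beside 7.08% of all genes. At an unadjusted p below 0.05, 2 members were higher (Hist1h1d and Hist1h4j), beside 6.77% of all genes, and 0 were lower, beside 7.45%. Hist1h1d, whose values in both groups are given above, lay above 3 of the 4 young control libraries in all 3 old control libraries, and old control 1 lay below young control 3. Its log2 fold change was 2.19 ± 0.63 with an adjusted p of 0.0804 by edgeR. Without young control 3 and young CCCP 3, left out after the values were seen, it was 2.64 with an adjusted p of 0.00969, and Hist1h1e and Hist1h4c were then called higher too, at 2.11 with an adjusted p of 0.0104 and at 2.53 with one of 0.0183. Hist1h1d was also called without old control 1, at 2.65 with an adjusted p of 0.0206, and had 1.66 with an adjusted p of 0.431 without old control 3. The median log2 fold change over the members was 0.67, with 0.16 over all genes, and all old control libraries were above all young control libraries for 7 members, beside 5.04% of all genes, and below for 0 members, beside 6.50%. The comparisons with Mito-Q and with CCCP each share their control libraries with this one, so they are not independent.

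Because the summed level varied so much between libraries, the share of single members within it was computed, a measure chosen after the values were seen. Hist1h1d made up between 0.547% and 2.59% of the members' sum in old Mito-Q, against between 5.47% and 6.87% in old control. It made up between 4.38% and 12.8% in young CCCP, against between 1.29% and 2.50% in young control. On this scale the groups of both treatment comparisons do not overlap, and neither do old control and young control. The 3 old control libraries have like shares of Hist1h1d although their sums range between 400.4 and 1458 CPM. Hist1h2bc ran the other way, with shares between 17.8% and 23.9% in old Mito-Q, against between 8.09% and 12.6% in old control, and between 2.99% and 9.60% in young CCCP, against between 11.2% and 18.0% in young control. The groups overlap for Hist1h4d, with median shares of 12.7% in old Mito-Q and 12.9% in old control, and 13.6% in young CCCP and 12.5% in young control. Separation with Mito-Q was not particular to Hist1h1d and Hist1h2bc. Hist1h4c made up between 0.352% and 2.69% in old Mito-Q, against between 4.16% and 5.20% in old control, while its young groups overlap. How many members separate in this way is not given here. Shares of a sum are not independent of each other, and no test was run on them.

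**Figure D5:**
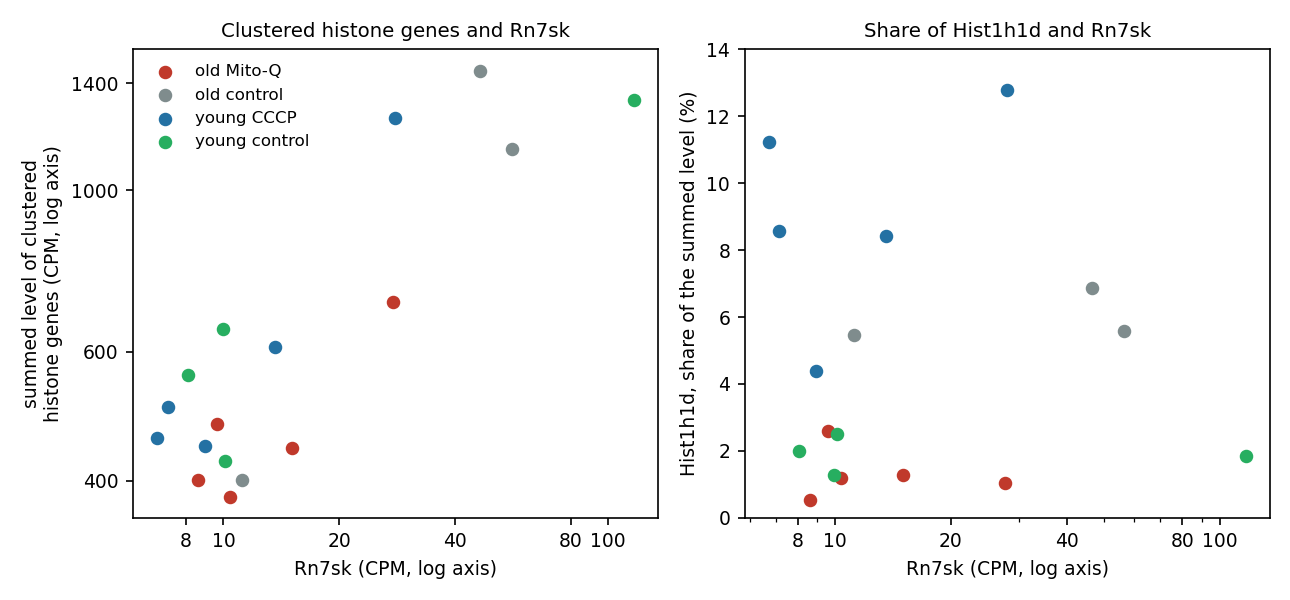
Left, summed level of the members against Rn7sk, both in CPM on log axes, 1 point per library coloured by group. Right, the share of Hist1h1d in that sum (%) against Rn7sk: the old Mito-Q libraries lie at or below 2.59%, with Rn7sk between 8.603 and 27.6 CPM, and the old control libraries at or above 5.47%, with Rn7sk between 11.2 and 56.4 CPM.

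The promoters of the 3 abundant linker histone genes are shown because Hist1h1d and Hist1h1e had estimates of the same sign in each comparison and Hist1h1c did not with CCCP. The 250 bases before the RefSeq start, which for Hist1h1d lies inside the longer GENCODE exon, are given on the gene's strand, from GRCm38.p6, with 4 motifs in capitals on either strand, namely the TATA box as TATAAA, the CAAT box as CCAAT, the octamer as ATTTGCAT and the H1 box as AAACACA.
Hist1h1d, chr13:23554782-23555031, plus strand: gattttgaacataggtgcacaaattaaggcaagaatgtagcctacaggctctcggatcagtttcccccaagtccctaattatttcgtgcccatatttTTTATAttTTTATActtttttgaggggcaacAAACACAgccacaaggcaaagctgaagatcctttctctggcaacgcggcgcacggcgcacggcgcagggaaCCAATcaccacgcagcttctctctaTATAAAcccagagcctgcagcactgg
Hist1h1e, chr13:23622559-23622808, minus strand: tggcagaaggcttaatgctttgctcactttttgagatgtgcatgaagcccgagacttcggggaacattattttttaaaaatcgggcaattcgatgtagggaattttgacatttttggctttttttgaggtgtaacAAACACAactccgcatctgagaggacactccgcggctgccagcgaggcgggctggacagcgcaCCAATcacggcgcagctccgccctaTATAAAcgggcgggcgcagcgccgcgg
Hist1h1c, chr13:23738557-23738806, plus strand: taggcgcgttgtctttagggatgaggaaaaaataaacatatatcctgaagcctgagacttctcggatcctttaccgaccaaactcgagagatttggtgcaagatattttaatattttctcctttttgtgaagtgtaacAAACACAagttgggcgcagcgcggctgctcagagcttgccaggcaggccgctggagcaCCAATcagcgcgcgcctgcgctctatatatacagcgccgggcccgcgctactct
All 3 hold an H1 box and a CAAT box in the same order, and TATAAA was found in the first 2 and not in the window of Hist1h1c. Over 63 promoters of 62 members, TATAAA occurred in 46.0%, against 12.4% of 32851 RefSeq promoters, and CCAAT in 82.5%, against 33.8%. The octamer occurred in 22.2% of the members' promoters, all of them of H2A or H2B genes, against 1.60% of all promoters, and the H1 box in 14.3%, including 5 of the 6 H1 genes, against 6.25%. A match is a description of these letters and not a site.

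Some members lie head to head with a neighbour. With at most 1000 bases between their annotated starts there were 13 such pairs, 12 of an H2A with an H2B gene, at a median distance of 267 bases. Hist1h2ae and Hist1h2bg lie 175 bases apart at chr13:23570517-23572013. With CCCP the log2 fold changes were -0.41 ± 0.52 for Hist1h2ae and -1.55 ± 0.46 for Hist1h2bg, and with Mito-Q they were -1.05 ± 0.56 and -0.80 ± 0.49 in that order. Hist1h2ac and Hist1h2bc lie 250 bases apart, and with CCCP they had -0.79 ± 0.45 for Hist1h2ac and -1.26 ± 0.34 for Hist1h2bc. None of these passed the edgeR threshold, and the difference within a pair was not tested.

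Replacement histones can be made outside S phase, many of them from genes with introns and poly(A) tails, and 13 of 14 listed genes were tested. The 1 called with each treatment was H3f3b, an H3.3 gene. H3f3b averaged 6288 ± 1567 CPM in old Mito-Q and 2534 ± 1025 CPM in old control (SD, n = 5 and 3), a log2 fold change of 1.31 ± 0.30 with an adjusted p of 0.0334 by edgeR. In the young groups it averaged 1288 ± 206 CPM in young CCCP and 3534 ± 416 CPM in young control (SD, n = 5 and 4), a log2 fold change of -1.46 ± 0.26 with an adjusted p of 0.00202. Its direction was opposite to the estimates of Hist1h1d in both treatments, which share no control libraries. H2afz, an H2A.Z gene, did not pass in either, with log2 fold changes of -0.57 ± 0.36 with Mito-Q and -0.40 ± 0.33 with CCCP. In old control against young control 0 of the 13 were called by edgeR, limma-voom or DESeq2, and 0 had an unadjusted p below 0.05.

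Of 24 genes for histone message synthesis, 3′ processing and decay, Tut7 was the 1 called in each comparison. Tut7 encodes a terminal uridylyltransferase, and in human cells uridine tails are added to histone messages before their decay. Tut7 averaged 307 ± 102 CPM in old Mito-Q and 60.1 ± 11.4 CPM in old control, a log2 fold change of 2.35 ± 0.34 with an adjusted p of 0.000190 by edgeR. In the young groups it averaged 128 ± 41.7 CPM in young CCCP and 300.2 ± 50.5 CPM in young control, at -1.23 ± 0.28 with an adjusted p of 0.0330, and old control was lower than young control, at -2.32 ± 0.35 with an adjusted p of 0.000267. The stem-loop binding protein gene Slbp did not pass, at 108 ± 35.1 CPM in old Mito-Q and 132 ± 43.2 CPM in old control, and at 126 ± 39.2 CPM in young CCCP and 109 ± 20.1 CPM in young control. Of 22 histone chaperone genes 1 was called in each comparison, Spty2d1, whose yeast counterpart Spt2 binds H3 and H4. Spty2d1 averaged 122 ± 32.8 CPM in old Mito-Q and 12.9 ± 6.17 CPM in old control, and 43.9 ± 14.6 CPM in young CCCP and 176 ± 67.2 CPM in young control. Its log2 fold changes were 3.25 ± 0.45 with Mito-Q, -2.005 ± 0.35 with CCCP and -3.78 ± 0.47 in old control over young control, with adjusted p of 8.1e-05, 0.00184 and 2.03e-05 by edgeR.

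Since these histone messages follow DNA replication, 33 genes of replication and S phase were set beside them. With Mito-Q, edgeR, limma-voom and DESeq2 each called 0, and 3 were higher and 2 lower at an unadjusted p below 0.05, with a median log2 fold change of 0.05. With CCCP, edgeR and limma-voom called 0 and DESeq2 called 1, Pold1, higher, and 6 were higher and 0 lower at an unadjusted p below 0.05. In old control against young control, Mcm4, a subunit of the replicative helicase, was called lower, at 56.3 ± 12.6 CPM in old control and 228 ± 86.8 CPM in young control, with a log2 fold change of -2.01 ± 0.47 and an adjusted p of 0.0214 by edgeR. In that comparison limma-voom called 0 of the 33 and DESeq2 called 3 lower (Mcm4, Mcm6 and Rrm1), and 0 were higher and 8 lower at an unadjusted p below 0.05. Summed over the 33 genes, the level ran between 1712 and 2831 CPM in old Mito-Q, against between 1837 and 2252 CPM in old control, and between 2616 and 4506 CPM in young CCCP, against between 1802 and 4295 CPM in young control. Of the 5 libraries highest in clustered histone transcripts, old Mito-Q 3 had an S phase sum of 2412 CPM, within its group's range, and old control 2 and 3 had 2252 and 2046 CPM, above the 1837 CPM of old control 1. The S phase sum was lowest of its group in young CCCP 3, at 2616 CPM, and likewise in young control 3, at 1802 CPM.

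Of 20 mitosis genes, 0 were called with Mito-Q by edgeR, limma-voom or DESeq2, with 3 higher and 0 lower at an unadjusted p below 0.05. With CCCP edgeR and limma-voom called 0 and DESeq2 called 2 higher, Aurka and Cenpf, and 5 were higher at an unadjusted p below 0.05. Mki67, a marker of cycling cells, was lower in old control, at 47.1 ± 11.4 CPM against 146 ± 43.9 CPM in young control, with a log2 fold change of -1.63 ± 0.33 and an adjusted p of 0.00751 by edgeR. In that comparison DESeq2 called Mki67 lower and Cenpf higher, limma-voom called 1 of the 20, and 1 was higher and 4 lower at an unadjusted p below 0.05. Of 14 genes for partners of linker histones and heterochromatin, Lbr, the lamin B receptor gene, was lower in old control, at 98.0 ± 22.9 CPM against 343 ± 116 CPM in young control, with an adjusted p of 0.00258 by edgeR, and 0 were called with either treatment by edgeR, limma-voom or DESeq2. With Mito-Q 1 of these 14 was higher and 2 lower at an unadjusted p below 0.05, and with CCCP 0 were.

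Marker genes of neutrophils and their granules, a cell type outside the gate, were set beside the members. The 11 neutrophil and granule genes summed to between 984 and 14266 CPM in old Mito-Q, against between 1089 and 2393 CPM in old control, and to between 767 and 16416 CPM in young CCCP, against between 417 and 2202 CPM in young control. None of the 11 was at 0 in all libraries. DESeq2 called 4 of them higher with Mito-Q and 8 with CCCP, and edgeR called 1, Elane, neutrophil elastase, higher with CCCP, at 432 ± 275 CPM in young CCCP and 2.35 ± 1.02 CPM in young control, while limma-voom called 0 of the 11 with either treatment. In old control against young control edgeR called 1 of the 11 higher, DESeq2 called 2 higher and limma-voom called 1. By library, the sums were 2347, 984, 9736, 5708 and 14266 CPM in old Mito-Q. They were 9652, 767, 13917, 16416 and 5034 CPM in young CCCP. The Hist1h1d values of both groups are given above in the same order. The part of such cells in the histone levels was not tested. Of the 11 marker genes listed for the gate, edgeR called 1, lower in old control than in young control. In that comparison DESeq2 called 3 higher and 3 lower, Kit among them, and limma-voom called 2. With either treatment, edgeR, limma-voom and DESeq2 called 0 of these 11.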

How the data were processed

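The deposited files hold the authors' raw counts, 1 file for each of 17 libraries with Ensembl IDs, and per the submitters' processing notes Trim Galore, STAR 2.7 and GRCm38 were used. The counting program, its annotation and its strand setting are not given in the sources used here, so reads of overlapping genes on opposite strands cannot be told apart. The 5 footer entries of each file, holding 37.7% to 76.2% of its total, name no gene and stayed out of library sizes. Members were picked by symbol from GENCODE M21. edgeR 4.0.16 in R 4.3.3 fitted all 17 libraries at once, with TMM factors, the filterByExpr filter (minimum count 10), robust quasi-likelihood dispersions and no covariate, leaving 24523 genes. A gene was called where its p, adjusted by Benjamini-Hochberg over all of these in a two-sided test, was below 0.05. Alternatives were DESeq2 1.42.0, limma-voom (limma 3.58.1), other scalings and filters, fits of 2 groups, fewer libraries and a replicate block. The procedure was tested on simulated data. Libraries of a group all differed beyond sampling noise (chi-square per degree of freedom at least 20.9). Sequences came from GENCODE M21 transcripts and RefSeq promoters of GRCm38.p6. Members named were those called, the 12 of highest mean level, the 10 of smallest p in each comparison and those whose groups do not overlap. Of other lists the called genes and the 2 of highest mean level could be named, 1 of which is not reported here, and Slbp, Pold1, Mcm6, Rrm1, Aurka, Cenpf and Cd48 were added after their values were seen. The members, lists and tests were chosen with earlier results of these data known.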

Additional observations from a re-analysis of the deposited data

Results flagged for a closer look

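A value is given here where the highest or lowest library of a group of 4 or 5 stood far from its nearest neighbour for the width of the group, by Dixon's test at the 95% level. Chance marks about 1 in 20 groups, and 30 of the 96 groups examined were marked, over 32 quantities that share the same libraries. Old control, a group of 3, was not examined in this way.

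Young CCCP 3 was the high library in 11 of these. Its members summed to 1255 CPM, with H1 at 563 CPM and H3 at 139.8 CPM. Single members high in it were Hist1h1e at 253 CPM, Hist1h1d at 161 CPM, Hist1h4c at 89.0 CPM, Hist1h3e at 56.4 CPM, Hist1h2bj at 41.6 CPM, Hist1h3a at 38.1 CPM, Hist2h2ac at 22.4 CPM and Hist1h4j at 8.36 CPM.

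Young control 3 stood apart in 9. It was high in the sums of H4 at 466.05 CPM and H2A at 251 CPM, and in Hist1h4d at 289 CPM, Hist1h2bc at 149 CPM, Hist1h2ao at 88.1 CPM, Hist1h4c at 58.3 CPM, Hist1h4h at 33.9 CPM and Hist1h2bj at 20.7 CPM. It was low in Hist1h2bb at 0.653 CPM. The remaining young control values were Hist1h3c at 0.920 CPM in library 1 and Hist1h3f at 1.98 CPM in library 4.

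In old Mito-Q, library 3 stood apart in Hist1h4d at 168 CPM, Hist1h3a at 17.2 CPM and Hist1h4j at 0.981 CPM. Library 5 stood apart in Hist1h1c at 104 CPM, in Hist1h3c at 4.07 CPM and, as the lowest, in Hist1h2ao at 5.79 CPM. Library 4 stood apart in Hist1h2bg at 36.1 CPM and library 2 in Hist1h3f at 1.16 CPM. The others of the group were at 0 for Hist1h3f, so any read would have been marked.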

How the results depend on the processing

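Across alternatives, 522 of 542 fold changes of named members kept their direction and side of the threshold. In old Mito-Q against old control, members called numbered 3 with DESeq2, 0 with limma-voom and 3 without the low-count filter (Hist1h1d, Hist1h1e and Hist1h4c), against 1 as reported. Leaving out 1 library gave 0 to 1, with 0 without old control 3. In young CCCP against young control they numbered 4 with DESeq2, 1 with library totals and 1 without the filter, against 0, and 0 to 1 without 1 library. In old control against young control they numbered 1 with DESeq2, 1 without the filter and 3 without young control 3 and young CCCP 3, an alternative chosen after seeing the data, against 0, and 0 to 1 without 1 library. The cause of these changes was not tested. The members' median ran between -1.71 and -0.92 with Mito-Q, between -0.10 and 0.95 with CCCP and between 0.28 and 1.11 in old control over young control. The estimate of Hist1h2bl in old control over young control ran between -1.11 (old control 3 left out) and 3.48 (old control 1 left out), against 2.84. Same-numbered libraries correlated between -0.11 and 0.12 in their deviations from group means, and pairs of unlike number between -0.16 and 0.15. No label says whether numbers pair libraries, and so few pairs cannot settle it. The replicate block gave 1 call with Mito-Q, 0 with CCCP and 0 in old control against young control, as did those libraries without the block. Members with few reads are limited by depth, since 3 reads are at least 0.369 CPM before TMM scaling.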
